A study of Homo sapiens with 12 samples.

Results

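The genes CXCL1, CXCL2, CXCL3, CXCL5, CXCL6, CXCL8 (IL8), CCL2, CCL20, IL6 and IL32, were followed in HK-2 cells as the chemokines and inflammatory cytokines of a tubular cell. They were chosen by name, and they are 10 of the 19775 genes that had a probe set with a single gene symbol. They had 15 probe sets in all, and each gene was read from its brightest one. HK-2 is an established human line of proximal tubular epithelial cells, immortalized with papillomavirus genes. The samples were 3 cultures each of cells given Fk for 48 h, control vehicle for 48 h, Fk for 12 h and control vehicle for 12 h, with no further agent named for either arm and no dose given in the labels used here. All cultures were grown with EGF, hydrocortisone, insulin, transferrin and selenite, and were exposed near confluence after a day on the plate. Total RNA of the 12 cultures was hybridised to 12 Affymetrix arrays, and the values below are log2 GCRMA signals per probe set.

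CXC chemokines with a glutamate-leucine-arginine motif, which here are CXCL1, CXCL2, CXCL3, CXCL5, CXCL6 and CXCL8, draw neutrophils through the receptors CXCR1 and CXCR2. CCL2 draws monocytes through CCR2, CCL20 draws cells that carry CCR6, IL6 signals through IL6R and the shared subunit IL6ST, and IL32 is a cytokine of epithelial and immune cells. In injured kidney the tubular epithelium is a known source of several of them. Their transcription is classically switched on by NF-kB, often together with AP-1 and C/EBP factors, and many of their mRNAs carry AU-rich elements that shorten their life.

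The 6 CXCL genes lie within 358.6 kb of chromosome 4 (GRCh38.p14), from 73740569 to 74099195, whereas CCL2 lies on chromosome 17, CCL20 on chromosome 2, IL6 on chromosome 7 and IL32 on chromosome 16. RefSeq promoters were matched for 9 members. Stretches of 8 of them are printed because they hold an NF-kB type motif in common, both in genes that the arrays measured and in genes that they did not. Each is 5′ to 3′ on the gene's own strand, lies upstream of the transcription start, and has the motif GGNNTTTCC in capitals.
CXCL1: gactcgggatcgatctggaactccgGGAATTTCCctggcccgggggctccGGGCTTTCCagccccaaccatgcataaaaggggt
CXCL2: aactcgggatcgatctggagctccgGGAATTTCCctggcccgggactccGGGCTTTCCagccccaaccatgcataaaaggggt
CXCL3: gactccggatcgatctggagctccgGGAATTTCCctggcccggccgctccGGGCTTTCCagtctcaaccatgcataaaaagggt
CXCL5: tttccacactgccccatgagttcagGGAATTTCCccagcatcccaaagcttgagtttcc
CXCL6: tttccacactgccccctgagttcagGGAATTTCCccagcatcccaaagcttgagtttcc
CXCL8: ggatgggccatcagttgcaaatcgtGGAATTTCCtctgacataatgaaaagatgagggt
IL6: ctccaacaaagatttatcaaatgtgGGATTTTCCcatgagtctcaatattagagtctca
IL32: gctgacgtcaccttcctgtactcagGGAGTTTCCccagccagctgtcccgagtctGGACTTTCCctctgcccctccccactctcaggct

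In GRCh38.p14 the CXCL1 stretch is chr4:73869290-73869373 on the plus strand, the CXCL6 stretch is chr4:73836564-73836622 on the plus strand and the CXCL8 stretch is chr4:73740453-73740511 on the plus strand. The CXCL2 stretch is chr4:74099215-74099297, the CXCL3 stretch chr4:74038709-74038792 and the CXCL5 stretch chr4:73998734-73998792, all on the minus strand. The IL6 stretch is chr7:22727103-22727161 and the IL32 stretch is chr16:3065280-3065368, both on the plus strand. Searched on both strands of the 250 bases before the start, GGNNTTTCC was found at all 9 members with a promoter, against 1926 of 35116 promoters (5.48%). IL32 has 2 listed promoters, of which 1 held the motif, and in CCL20 it lies on the opposite strand. The AP-1 type motif TGANTCA, present in 6.57% of promoters, was found at 1 of the 9 members, CXCL8. The first 59 bases of the CXCL5 and CXCL6 stretches were identical at 98.3% of positions. With gaps allowed, the CXCL1 stretch differed from that of CXCL2 by 4 bases, inserted or deleted bases included, and from that of CXCL3 by 7. A match of letters is a description of the sequence and not a measured binding site.

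**Figure D1:**
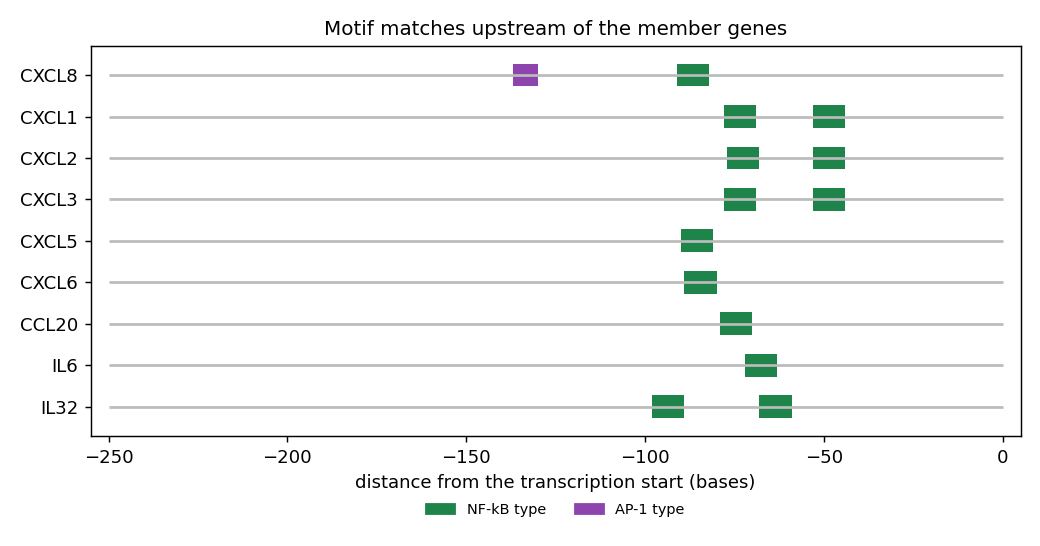
Positions of the NF-kB type and AP-1 type motifs in the 250 bases before the start of the 9 members with a promoter; the x axis is the distance from the start in bases. Every gene carries at least 1 NF-kB type match, and CXCL8 also carries the AP-1 type match.

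The epithelial markers KRT8, KRT18, KRT19, EPCAM and CDH1 all reached a log2 value of 4, the floor used for testing, on at least 3 arrays. Of 11 proximal tubule markers with a probe set only PAX8 did, and LRP2, CUBN, SLC34A1 and AQP1 stayed under 4 on all 12 arrays. The summed log2 signal of the proximal tubule markers at 12 h was 36.85 to 37.42 in Fk cultures and 37.28 to 38.44 in controls. None of 9 leukocyte markers reached the floor, with PTPRC and CD14 under 4 on all arrays. Of the endothelial markers 1 of 5 (PECAM1) reached it, and their summed log2 signal was 14.16 to 14.73 in Fk cultures at 12 h, against 14.03 to 14.15 in control cultures at 12 h. Of the fibroblast markers 3 of 6 (DCN, LUM and COL1A1) reached it, with sums of 35.46 to 36.52 in Fk cultures and 33.76 to 35.68 in controls at 12 h. The part of these differences in the results at 12 h was not tested.

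One array stood apart. Fk replicate 3 at 12 h read 14.38 for the 5′ probe set of 28S ribosomal RNA, against 8.50 to 10.29 on the other 11 arrays, and it differed by over 1 log2 unit from the mean of its group's other 2 arrays in 15.4% of genes, while those 2 arrays differed from each other by that much in 0.668%. Values that move with this array are given with and without it, and leaving it out also narrows the intervals of the other comparisons, since all groups share an estimate of the spread. Array medians ran from 2.85 to 2.94.

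CXCL1, CXCL6 and CCL2 gave no usable signal. CXCL1 read 2.45 to 2.51, CXCL6 read 2.40 to 2.47 and CCL2 read 2.38 to 2.42 over all 12 arrays, below the array medians. These 3 genes never reached the floor and were not tested, so 7 of the 10 members were. CXCL1 and CXCL6 thus read below the array medians while CXCL2, CXCL3 and CXCL5, whose printed promoter stretches differ from theirs by few bases, were measured. Whether the probe sets for these 3 genes failed to report a transcript that was present was not tested.

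The other 7 members lay between the 58.5th and the 99.5th percentile of their arrays. CXCL8, the classic neutrophil chemokine, read 12.58 to 13.91 on the 11 arrays other than Fk replicate 3 at 12 h. IL32 read 9.51 to 11.18 over all 12 arrays and CXCL2, a neutrophil chemokine of the same cluster, read 7.19 to 11.11. CXCL5 read 6.56 to 10.01, IL6 3.57 to 9.48, CCL20 4.48 to 7.58 and CXCL3 4.08 to 6.50. These are signals of separate probe sets and do not rank the amounts of the transcripts. The sets used for CXCL2, CXCL5, CXCL8 and IL32 carry a suffix that the array's maker gives to sets that can match several transcripts. The other 2 sets of CXCL2 read 3.29 to 3.64 and 2.53 to 2.57.

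**Figure D2:**
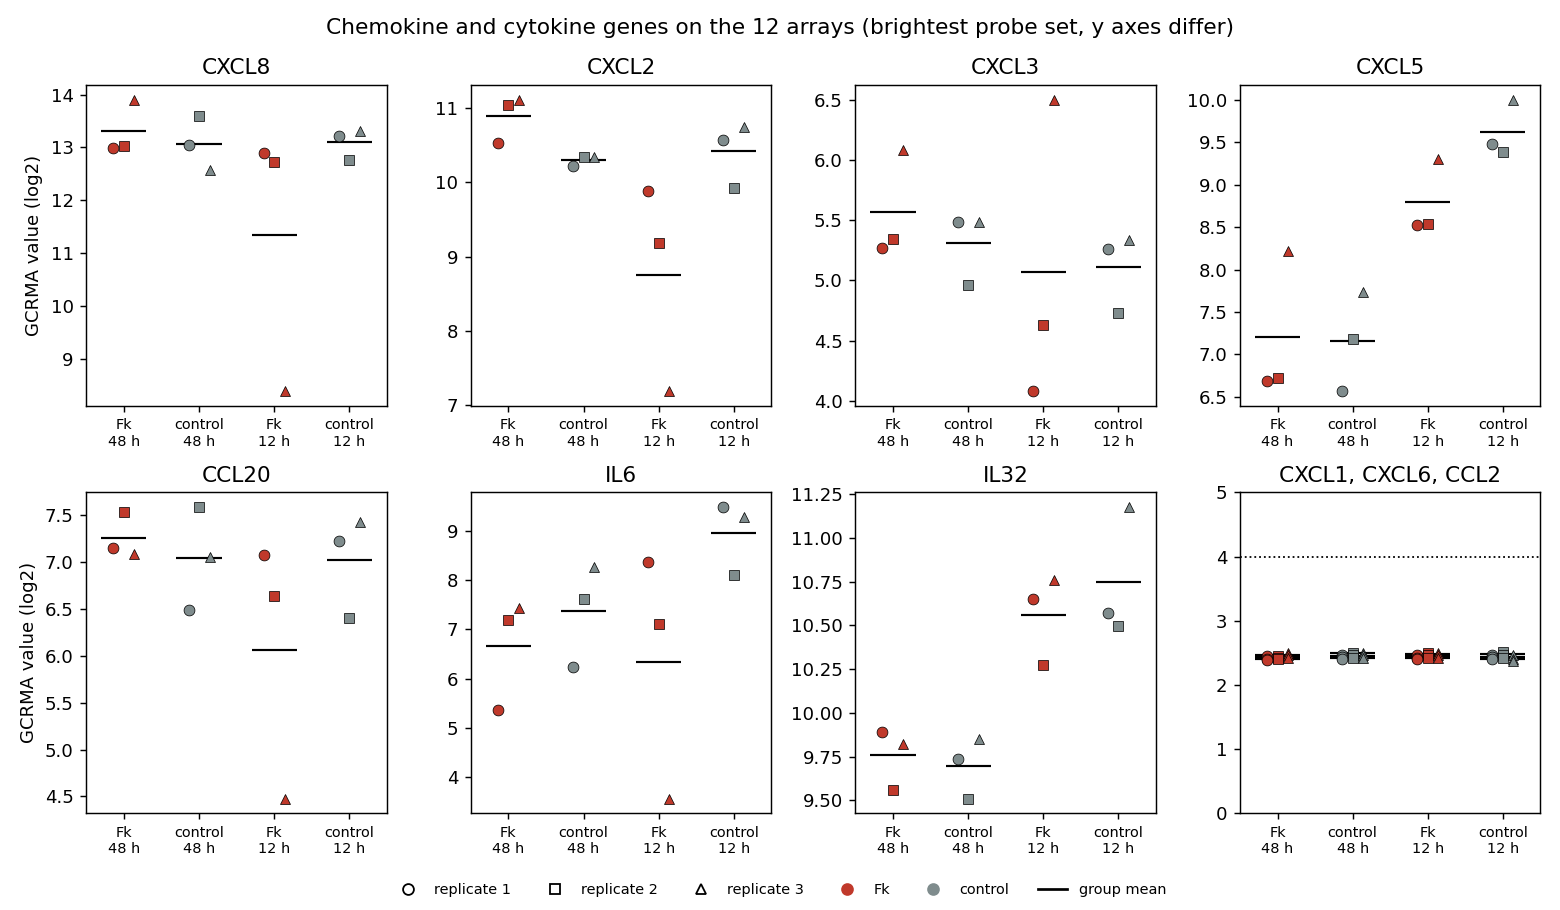
Log2 GCRMA signal of the brightest probe set of each member, by group (Fk 48 h, control 48 h, Fk 12 h, control 12 h), with a point per array a bar at the group mean and, in the last panel, a dotted line at the testing floor of 4. CXCL1, CXCL6 and CCL2 are flat near 2.4, and the lowest CXCL8, IL6, CCL20 and CXCL2 points belong to Fk replicate 3 at 12 h.

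At 12 h, none of the 7 tested members passed the test between Fk and control cultures, while all 7 had lower means in Fk cultures. The differences ran from -2.61 for IL6 to -0.038 for CXCL3, with a median of -0.96, against 0.015 over all genes. No gene of the 10784 tested passed at this time (0%), and 46.8% of them had a lower mean in Fk. At an unadjusted p under 0.05, CXCL2 and IL6 were the members counted, against 6.71% of all genes. Without Fk replicate 3 the unadjusted limma p of IL6 was 0.145. Those of CXCL2 (0.0113), CXCL3 (0.0330) and CXCL5 (0.0447) were then under 0.05, with adjusted p of 0.494, 0.585 and 0.618. The share of all genes under 0.05 in that fit was not counted, so these p-values have no background beside them. In CXCL2 and CXCL5 all 3 Fk arrays lay below all 3 control arrays, which is 2 of 7 members against 6.49% of genes. As whole cultures were measured, fewer producing cells and less RNA per cell cannot be told apart.

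CXCL2 read 9.88, 9.19 and 7.19 in Fk cultures at 12 h, against 10.58, 9.92 and 10.75 in control cultures. Every Fk array was below every control array, and replicate 3 was the lowest. The difference was -1.66 ± 0.54 (log2, SE; adjusted p = 0.654), and -0.88 ± 0.28 without replicate 3 (adjusted p = 0.494). CXCL3, of the same gene cluster, read 4.08, 4.63 and 6.50 in Fk cultures, against 5.26, 4.73 and 5.33 in control cultures. Replicate 3 was here the highest of the 6 arrays and the other 2 Fk arrays were the lowest, so the difference of -0.038 became -0.75 ± 0.30 without it (adjusted p = 0.585).

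CXCL5, a further neutrophil chemokine, read 8.52, 8.54 and 9.31 in Fk cultures at 12 h, against 9.48, 9.39 and 10.01 in control cultures. The groups did not overlap, and the difference was -0.83 ± 0.44 (adjusted p = 0.761), or -1.09 without Fk replicate 3. Its second usable probe set read 5.86, 5.14 and 6.46 in Fk cultures, against 7.55, 6.73 and 8.10 in control cultures. That set also did not overlap and differed by -1.64 (adjusted p = 0.568), with -1.96 when replicate 3 was left out (adjusted p = 0.356). The remaining CXCL5 set stayed at 2.86 to 2.94 on every array.

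CXCL8 read 12.90, 12.73 and 8.39 in Fk cultures at 12 h, against 13.21, 12.76 and 13.31 in control cultures. A single Fk array was far below the rest, and the others overlapped the controls. The difference was -1.76 ± 0.96 (adjusted p = 0.778) and -0.28 without that array. The second CXCL8 probe set read 12.87, 12.66 and 5.76 in Fk cultures, against 12.84, 12.76 and 12.79 in control cultures.

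IL6 read 8.37, 7.11 and 3.57 in Fk cultures at 12 h, against 9.48, 8.10 and 9.28 in control cultures. Replicates 1 and 2 of Fk straddled the lowest control, and the difference of -2.61 ± 1.08 (adjusted p = 0.731) became -1.22 without replicate 3 (adjusted p = 0.790). CCL20 read 7.07, 6.63 and 4.48 in Fk cultures, against 7.22, 6.40 and 7.43 in control cultures, a difference of -0.96 that became -0.17 without replicate 3. IL32 read 10.65, 10.27 and 10.76 in Fk cultures, against 10.57, 10.50 and 11.18 in control cultures. Its groups overlapped, and it differed by -0.19 ± 0.20, or -0.29 without replicate 3.

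Without Fk replicate 3, all 7 members still had a lower mean at 12 h, with a median of -0.75 against 0.026 for all genes, of which 44.1% were lower. CXCL2, CXCL3 and CXCL5 then had Fk arrays entirely below controls, 3 of 7 members against 15.5% of genes. None of the 7 passed the test, against 0.0278% of genes.

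**Figure D3:**
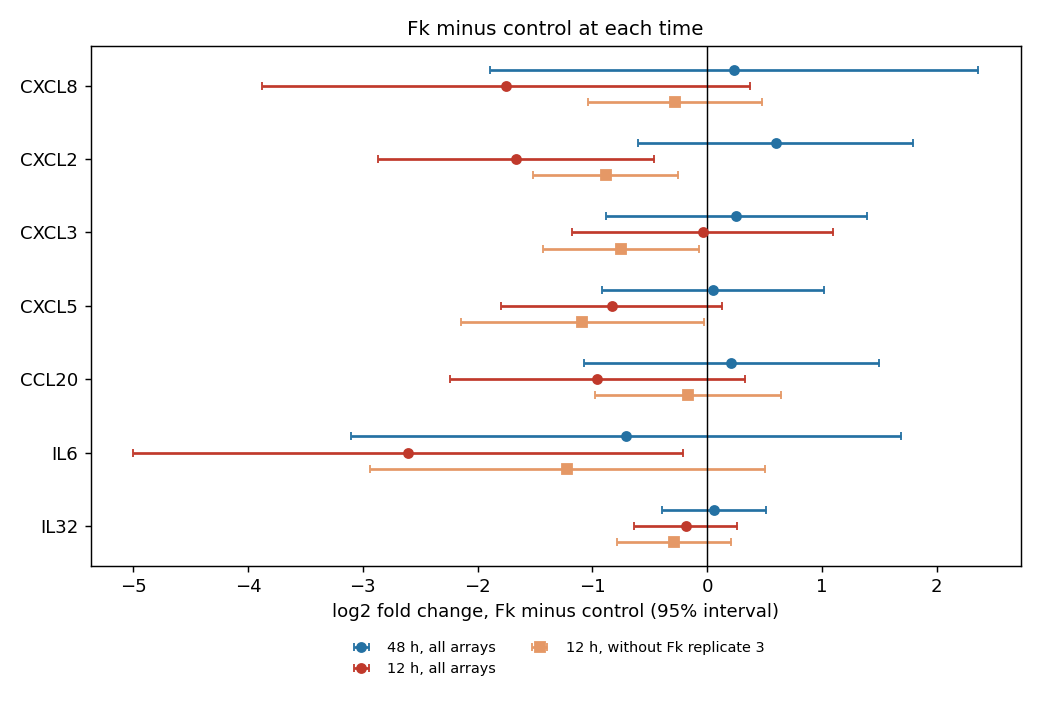
Log2 difference, Fk minus control, of the 7 tested members with 95% confidence intervals, at 48 h, at 12 h with all arrays and at 12 h without Fk replicate 3. The 12 h points lie left of 0, and without replicate 3 those of CXCL8, IL6, CCL20 and CXCL2 move towards 0, while those of CXCL3, CXCL5 and IL32 move away from it.

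At 48 h, none of the 7 members passed the test either, again among 0% of genes, and no member had an unadjusted p under 0.05, against 5.18% of genes. Without Fk replicate 3 at 12 h, which enters the shared spread, 1 member (CXCL2) had an unadjusted p under 0.05, against 8.39% of genes, and none of the 7 passed, against 0.00927% of genes. Means were higher in Fk cultures for 6 of the 7, and the median was 0.21 against 0.018 for all genes, of which 53.8% were higher. CXCL2 was the member whose groups did not overlap, 1 of 7 against 6.14% of genes with Fk arrays all above controls. It read 10.53, 11.03 and 11.11 in Fk cultures, against 10.21, 10.34 and 10.34 in control cultures, a difference of 0.60 with a 95% interval of -0.60 to 1.80. The interval was 0.032 to 1.16 when Fk replicate 3 at 12 h was left out of the fit (adjusted p = 0.572).

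CXCL8 read 12.99, 13.03 and 13.91 in Fk cultures at 48 h, against 13.04, 13.59 and 12.58 in control cultures, and the groups overlapped, with a difference of 0.24 (interval -1.89 to 2.36, or -0.44 to 0.92 without Fk replicate 3 at 12 h). CXCL3 read 5.27, 5.34 and 6.08 in Fk cultures, against 5.48, 4.96 and 5.49 in control cultures. CXCL5 read 6.69, 6.72 and 8.22 in Fk cultures, against 6.56, 7.18 and 7.74 in control cultures. Both of these also overlapped, with differences of 0.25 and 0.051.

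CCL20 read 7.15, 7.52 and 7.08 in Fk cultures at 48 h, against 6.49, 7.58 and 7.05 in control cultures. IL32 read 9.89, 9.56 and 9.82 in Fk cultures, against 9.74, 9.51 and 9.85 in control cultures. These differed by 0.21 and 0.059 with overlapping groups. IL6 was the member with a lower mean, at 5.37, 7.19 and 7.44 in Fk cultures, against 6.24, 7.62 and 8.27 in control cultures, a difference of -0.71 (interval -3.10 to 1.69, or -2.25 to 0.83 without Fk replicate 3 at 12 h).

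The Fk effect at 48 h minus that at 12 h was positive for all 7 members, from 0.25 to 2.26, where 51.6% of all genes were positive. None of the 7 passed the test, nor did any gene (0%), and CXCL2 alone among the members had an unadjusted p under 0.05, against 3.31% of genes. For CXCL2 the effects were 0.60 at 48 h and -1.66 at 12 h, a difference of 2.26 ± 0.77 (adjusted p = 0.996). Without Fk replicate 3 at 12 h the difference was 1.48 ± 0.38 (adjusted p = 0.954), and that of CXCL3 was 1.01, against 0.29 with the array. CXCL2 and CXCL3 then had an unadjusted p under 0.05, 2 of 7 members against 4.4% of genes, and none passed the test (0% of genes). Averaged over both times, the Fk effect ran from -1.66 for IL6 to 0.11 for CXCL3 and no member passed the test, as against 0.00927% of genes. Without the array it ran from -0.96 for IL6 to 0.022 for CCL20, with CXCL3 at -0.25, and again no member passed, against 0.0185% of genes.

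Time in culture was followed in each arm. In control cultures CXCL5 and IL32 fell between 12 h and 48 h, 2 of 7 members against 10.9% of genes that fell and 21.5% that changed. The control arrays given above for CXCL5 at 48 h were all below those at 12 h, and the change was -2.46 ± 0.44 (adjusted p = 0.00458). Its second probe set read 3.87, 4.07 and 4.59 at 48 h, against 7.55, 6.73 and 8.10 at 12 h, a change of -3.29 (adjusted p = 0.00146). IL32 changed by -1.05 ± 0.20 (adjusted p = 0.00688). These were also the 2 members with all 48 h arrays below the 12 h arrays, as were 24.9% of genes. IL6 had a difference of -1.58 (adjusted p = 0.317), and CXCL2, CXCL3, CXCL8 and CCL20 differed by -0.12 to 0.20 with overlapping arrays.

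In Fk cultures CXCL2 rose, and CXCL5 and IL32 fell, 3 of 7 members against 23.2% of genes that changed, 11.5% up and 11.7% down. CXCL2 was higher on every 48 h array than on any 12 h array, by 2.14 ± 0.54 (adjusted p = 0.0196), and by 1.36 without Fk replicate 3 at 12 h (adjusted p = 0.00928). CXCL5 changed by -1.58 ± 0.44 (adjusted p = 0.0269), a call lost without that array (-1.32, adjusted p = 0.0661). IL32 changed by -0.80 ± 0.20 (adjusted p = 0.0196), and by -0.70 without the array (adjusted p = 0.0435). With only the 2 Fk groups in the fit none of the 3 passed (adjusted p = 0.102 for CXCL2, 0.0894 for CXCL5 and 0.0537 for IL32). None did without Fk replicate 2 at 48 h (0.0606, 0.0953 and 0.0717). Over all genes 831 and 1422 passed in these 2 fits, against 2500 in the main fit. IL32 also missed the threshold without Fk replicate 1 at 12 h (0.0554), and CXCL5 without Fk replicate 1 at 48 h (0.101).

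CXCL3 passed when Fk replicate 3 at 12 h was left out (1.21, adjusted p = 0.0193), against 0.49 with it (adjusted p = 0.515). CXCL8 and CCL20 had 48 h Fk arrays all above the 12 h ones, which with CXCL2 made 3 of 7 members against 19% of genes, with differences of 1.97 (adjusted p = 0.160) and 1.19 (adjusted p = 0.159), which became 0.49 and 0.40 without replicate 3. IL6 differed by 0.32, and by -1.07 without it. Without replicate 3, 25.8% of genes changed, 12.5% up and 13.4% down. The 2 arms' time courses share no arrays, and the test of their difference is the one given above for the Fk effects, which no member passed.

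**Figure D4:**
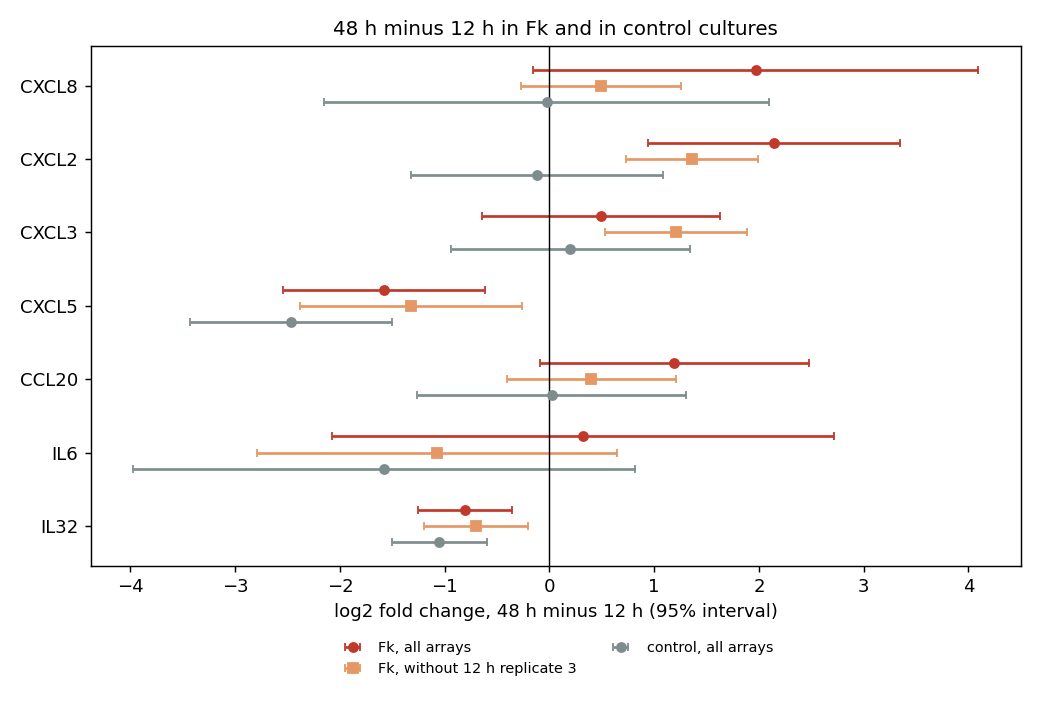
Log2 difference, 48 h minus 12 h, of the 7 tested members in Fk cultures (with and without Fk replicate 3 at 12 h) and in control cultures, with 95% confidence intervals. CXCL5 and IL32 lie below 0 in both arms, and CXCL2 lies above 0 in Fk cultures and near 0 in control cultures.

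Fk replicate 3 at 12 h did not move the members one way. Relative to the mean of its group's other 2 arrays it was lower by over 1 log2 unit for CXCL8 (-4.43), IL6 (-4.17), CCL20 (-2.37) and CXCL2 (-2.34), 4 of 7 members against 10.1% of genes. CXCL3 was higher by 2.14, 1 of 7 against 5.28% of genes. CXCL5 and IL32 were within 1 unit, at 0.77 and 0.30. Replicates 1 and 2 differed from each other by 0.02 to 0.69 in these genes, except IL6 at 1.26.

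**Figure D5:**
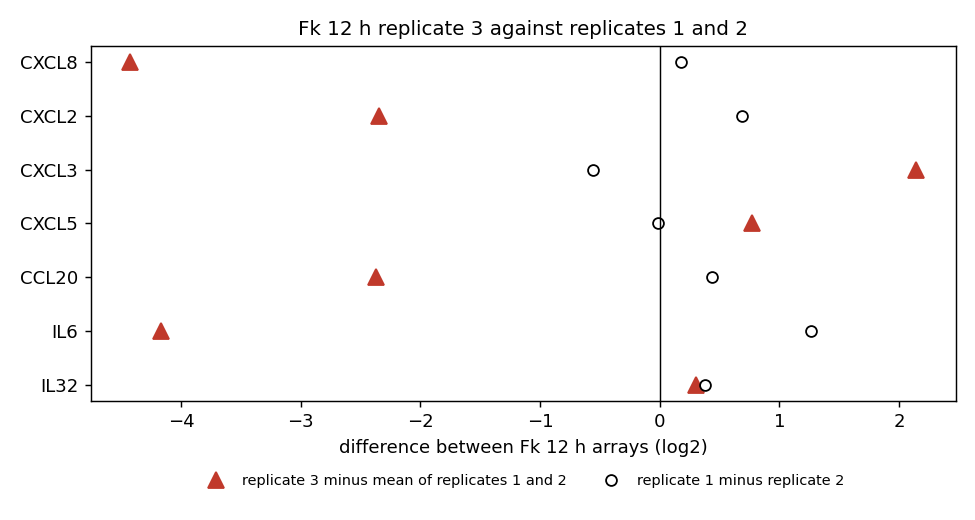
Deviation in log2 units of Fk replicate 3 at 12 h from the mean of replicates 1 and 2, and the difference between replicates 1 and 2, for the 7 tested members. CXCL8 and IL6 deviate by over 4 units downwards while CXCL3 deviates upwards.

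The genes whose array profiles were closest to those of CXCL8 and IL32, measured by the root mean square difference of centred log2 values, were also read. For CXCL8 they were ZFP36L1 (0.25), an mRNA decay factor, NHLRC2 (0.40) and PHLDA1 (0.43) over 12 arrays, while CXCL8 itself varied by 1.35 about its mean. ZFP36L1 read 12.68, 12.57 and 7.63 in Fk cultures at 12 h, and like CXCL8 it was lowest on replicate 3. Without that array the closest were NTN4 (0.18), TMCC1 (0.18) and TAF1A (0.22), against a spread of 0.37 in CXCL8. For IL32 the closest were DRAP1 (0.14), CLTB (0.16) and FKBP4 (0.17), against a spread of 0.51, and DRAP1 was also closest without replicate 3.

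The genes around these cytokines were read from 6 lists. Of 12 receptors of the members, IL6R, IL6ST, SDC1 and SDC4 were tested, while CXCR1, CXCR2, CCR2 and CCR6 never reached the floor. Of the other chemokines 3 of 22 with a probe set were tested (CXCL16, CCL28 and CX3CL1), and of the other cytokines 8 of 21. The lists of transcription factors, of inducing receptors and kinases and of mRNA decay factors had 15, 14 and 8 genes tested. No gene of any list passed the test between Fk and control at 12 h or at 48 h, where 0% of all genes did.

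Beside the members, receptors had among the smallest unadjusted p of the lists at 12 h. IL6R, the ligand-binding IL6 receptor, read 7.37, 7.57 and 6.97 in Fk cultures, against 8.48, 8.19 and 7.89 in control cultures, all Fk arrays lower, with a difference of -0.89 ± 0.23 (adjusted p = 0.605). IL1R1, the receptor of the cytokines IL1A and IL1B that induce these chemokines, read 5.96, 6.18 and 7.28 in Fk cultures, against 4.86, 5.21 and 4.98 in control cultures, all Fk arrays higher, with a difference of 1.46 ± 0.35 (adjusted p = 0.575). Without Fk replicate 3 these differences were -0.72 and 1.05. TLR3, a sensor of double-stranded RNA, differed by 0.86 and by 0.81 without that array. The stress factor ATF3 differed by 2.02, which became 0.84 without replicate 3, and CEBPD, a partner of NF-kB at inflammatory promoters, by -0.95, which became -0.25. The remaining genes picked by the same rule at 12 h, SDC4, CCL28, CX3CL1, IL18, IL15, HNRNPD and ZFP36, differed by -0.57 to 0.54. Without replicate 3 they differed by -0.18 to 0.45, with ZFP36 at -0.16 against -0.57 and IL15 at 0.0086 against 0.54.

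At 48 h the genes picked by that rule differed by -0.51 for the NF-kB subunit REL to 0.68 for the AP-1 subunit JUNB. Between them lay IL1RAP, the co-receptor of IL1R1, with 0.53 (adjusted p = 0.828), the cytokine LIF with 0.56, the decay factor ZFP36L2 with 0.51, and SDC1, SDC4, CCL28, CX3CL1, IL18, TLR2 and KHSRP.

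Over time several of these genes did pass the test. In control cultures 2 transcription factors of 15 rose and 1 fell, and 3 of 14 inducing receptors and kinases rose and 1 fell, where 21.5% of all genes changed and 10.9% fell. Without Fk replicate 3 at 12 h in the fit, 2 transcription factors rose and 3 fell, and 4 inducing receptors and kinases rose and 2 fell, against 31.9% of genes that changed. ATF3 rose by 5.36 between 12 h and 48 h and CEBPB, a C/EBP factor of cytokine genes, by 1.58, while the NF-kB subunit RELB fell by 0.62. EGFR rose by 0.77, IL1RAP by 0.70 and the kinase adaptor TAB2 by 0.66, and MYD88, the adaptor of the IL1 and Toll-like receptors, fell by 0.93. The syndecan SDC1 fell by 0.56, 1 of 4 receptors tested, and the mRNA-stabilising ELAVL1 by 0.52, 1 of 8 decay factors.

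In Fk cultures 2 of 15 transcription factors rose and 2 fell, 2 of 14 inducing receptors and kinases rose and 3 fell, and 1 of 8 decay factors fell, where 23.2% of all genes changed. ATF3 rose by 2.98, CEBPB by 2.06, IL1RAP by 1.17 and EGFR by 0.74. IL1R1 fell by 1.52, MYD88 by 1.04, ELAVL1 by 0.59 and NFKB1 by 0.57. STAT3, which IL6 activates, fell by 0.45, a call lost without Fk replicate 3 at 12 h (adjusted p = 0.0877). With that array left out, ATF3 rose by 4.16 and CEBPB by 1.61. In that fit 2 transcription factors rose and 3 fell. FOSL1 (-1.83, adjusted p = 0.0314) and NFKB2 (-0.81, adjusted p = 0.0203) were gained. Of the inducing receptors and kinases 3 rose and 4 fell, and 2 decay factors fell, against 25.8% of genes that changed. No gene of the lists of other chemokines and other cytokines passed in either arm with all arrays. Without Fk replicate 3 at 12 h, 2 of 8 other cytokines passed in Fk cultures, where 25.8% of genes did: IL15 was higher at 48 h by 1.02 (adjusted p = 0.0390), and IL18 was lower, at -0.69 (adjusted p = 0.0462).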

How the data were processed

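The authors' deposited table holds log2 values per probe set of 12 Affymetrix arrays, made with GCRMA, per the submitters' processing notes. GCRMA models background from probe sequences, quantile-normalizes the arrays and combines the probes of a set. Neither its version nor the set of arrays normalized together is given in the sources used here. That the deposited values are log2 was read from their range. Probe sets were named from the platform annotation, and those with several symbols or none were left out.

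Each gene was read from its brightest probe set (highest mean over 12 arrays), and 10784 genes whose set had log2 signals of 4 or more on 3 or more arrays were tested. Group means over all 12 arrays were fitted with limma 3.58.1 in R 4.3.3, with variances moderated by eBayes (2.44 prior and 8 residual degrees of freedom). Tests were two-sided, and Benjamini-Hochberg adjusted p-values of all tested genes were held to 0.05. Intervals are 95% confidence intervals. Per the labels, the 3 arrays in each group are biological replicates, and their number limits the precision. Fits were tested on simulated data. Promoters were searched and figures drawn with Python 3.11.15, pandas 2.3.3 and matplotlib 3.10.9.

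Genes of the lists were named by a rule: those past the threshold in a contrast, at most 4 per list and contrast, and otherwise the 2 with the smallest unadjusted p in each Fk contrast. The members, lists and tests were chosen with earlier results of these data known. Replicate numbers recur in all groups and were not taken to pair the arrays. Protein sequences were not analysed here. The likeness search planned for CCL2 was not run, as CCL2 was not tested.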

Additional observations from a re-analysis of the deposited data

Results flagged for a closer look

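The Fk effect on CXCL2 differed between the times in direction, by 2.26 log2 units (48 h minus 12 h). CXCL2 was flagged because every Fk array lay above every control array at 48 h and below every control array at 12 h. That pattern is the rule that picked the gene and not a separate result, and its share over all genes was not counted. The values come from 1 probe set that can match several transcripts. The other CXCL2 sets read 3.29 to 3.64 and 2.53 to 2.57. The test of the difference across all genes gave an adjusted p of 0.996 with limma, and 0.954 without Fk replicate 3 at 12 h, where the difference was 1.48.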

How the results depend on the processing

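Of 26 alternatives, 22 planned and 4 added after the data were seen, those that apply to a result were run on it. Of 1146 recomputed values 1079 were labelled the same. Fold changes had to keep their direction and their side of the threshold, and medians had to stay within the spread between replicates. Counts of members called could differ a little, as with the 4 called over time in Fk cultures under array weights. No member was called between Fk and control at either time under any adjusted alternative. At unadjusted p under 0.05, with all arrays, there were 2 at 12 h and 1 for the difference of the effects, against 6.71% and 3.31% of genes. With a replicate block within time, no member was called at 12 h, at 48 h, in the mean or in the difference (0 each), and CXCL2 differed by -1.66 at 12 h (adjusted p = 0.370). Deviations of same-numbered Fk and control arrays from their group means correlated at 0.041, 0.265 and 0.163 at 12 h and at 0.798, -0.025 and 0.606 at 48 h, over 0.1 in 4 of 6 pairs, and 5 of 6 Fk arrays matched their own number best. Since not every pair was over 0.1 the numbers were not taken as pairs, and the matches are a hint from the data, not from the design. IL6 was lower in Fk in 6 of 6 same-numbered pairs, with a blocked adjusted p of 0.373 at 12 h and 0.897 at 48 h. When Fk replicate 3 at 12 h was also left out, its blocked adjusted p was 0.0979 at 48 h and 0.0688 in the mean effect. The block changed no call of a member. With it and Fk replicate 3 at 12 h left out, the members' median of the difference of the Fk effects (48 h minus 12 h) was 0.41, against 1.17 in the main fit. In that fit CCL20 differed by 0.037 at 12 h, and the mean effects were 0.12 for CCL20, -0.19 for CXCL3 and 0.032 for CXCL8.

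Between 48 h and 12 h in Fk cultures, 2500 genes were called in the main fit. With no filter on dim probe sets 1 member was called, among 1771 genes called. Without sets that can match several transcripts 0 members were called (3 left to test), among 1756 genes. With only the 2 groups fitted 0 members were called, among 831 genes. When replicate 3 was also left out 1 member was called, among 1326 genes. Fewer genes were thus called in all of these settings than in the main fit. Without sets that can match several transcripts 0 members were called in control cultures, among 1571 genes, against 2314 genes in the main fit. Array weights turned the direction of CXCL3 in the mean effect (-0.25), of CXCL5 (-0.28) and CXCL8 (-0.22) at 48 h, of CXCL8 over time in controls (0.21) and of IL6 over time in Fk cultures (-0.69); the last was -1.07 with only 2 groups fitted and replicate 3 left out. CXCL8 over time in controls was also 0.095 with the mean of its probe sets, 0.013 after quantile normalization and 0.21 with its other probe set, and CCL20 was -0.015 after quantile normalization. The cause of these changes was not tested.

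Leaving out 1 array at a time gave 0 to 3 members called over time in Fk cultures, with a median of 0.23 to 1.33. The count of 0 came without Fk replicate 2 at 48 h, where 1422 genes were called, against 2500 in the main fit. Between Fk and control at 12 h the range was -0.75 to 0.46 for CXCL3 and -0.31 to 0.027 for IL32. At 48 h it was -0.066 to 0.48 for CCL20, -0.0034 to 0.40 for CXCL3, -0.46 to 0.34 for CXCL5, -0.063 to 0.49 for CXCL8 and -0.036 to 0.16 for IL32. The mean effect ran from -0.63 to 0.022 for CCL20, -0.25 to 0.36 for CXCL3 and -0.13 to 0.043 for IL32, and the difference of effects from -0.20 to 1.01 for CXCL3. Over time it was -0.28 to 0.30 for CCL20, -0.36 to 0.048 for CXCL2 and -0.28 to 0.22 for CXCL8 in controls, and -0.0032 to 1.21 for CXCL3 and -1.07 to 1.33 for IL6 in Fk cultures. Array weights gave 156 genes at 12 h and 94 at 48 h, against 0 and 0, none of them a member. They gave CXCL5 an adjusted p of 0.0643 at 12 h and 0.0747 in the mean effect. Over time in Fk cultures they called 4 members, among 5345 genes called. With 3 arrays a group, 1 of them apart, differences under the intervals given could not be resolved, and values near the floor carry little signal over background.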
